A study of Mus musculus with 7 samples.

Results

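The 10 genes described here are members of the immediate early response, the transcripts that a cell makes within minutes of a growth factor, cytokine, feeding or stress signal, before any new protein is needed. They are Fos, Jun, Junb, Jund, Egr1, Ier2, Ier3, Dusp1, Zfp36 and Myc, and they were chosen by symbol from the 14889 genes of the deposited count table. All 10 were found and all 10 passed the count filter, which kept 13693 genes for testing. The livers came from ApoE-/- mice of the C57BL/6 strain, aged 4 months, kept for 3 months on Western diet, so the saline controls also lack apolipoprotein E and share the diet. Apoe, the deleted gene, still gave 144 to 351 CPM (reads scaled to library size) in PX-478 livers and 130 to 284 CPM in saline livers, and reads from the parts of a deleted gene that remain cannot check the genotype. The PX-478 group has 3 livers from mice injected intraperitoneally with 40 mg/kg, bi-weekly in the wording of the labels, and the saline group has 4. PX-478 lowers HIF-1α, a transcription factor that acts when oxygen is short, and the transcript of that factor, Hif1a, was at 11.4 to 13.5 CPM in PX-478 livers and 11.7 to 14.1 CPM in saline livers. How long after the last injection, or at what hour, the livers were taken is not given in the labels, and each library is 1 liver at 1 moment.

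Immediate early genes are switched on by kinases of the MAPK pathways, which act on transcription factors already bound at the promoters, such as serum response factor with its ELK partners and CREB. Many of their mRNAs are degraded quickly, so the transcripts rise and vanish as a pulse. FOS and JUN proteins pair to form the AP-1 transcription factor, EGR1 and MYC are transcription factors in their own right, and DUSP1 and ZFP36 shut the response down. In the liver these genes are known from partial hepatectomy, fasting and refeeding, and acute injury.

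Both steps are read from sequence, induction from promoter elements and decay from AU-rich sequence near the end of the mRNA. A motif match below is a description of letters, not of a bound site. RefSeq promoter windows (GRCm38.p6, from 250 bases before the start to 50 after it) were matched for 7 of the 10 genes. The 200 bases before the start are shown for 3 genes, since these stretches held a full element (Dusp1, Zfp36) or a TATA box with partial elements (Fos), on the strand of the gene, with motif matches in capitals.
Fos, chr12:85473690-85473889, plus strand: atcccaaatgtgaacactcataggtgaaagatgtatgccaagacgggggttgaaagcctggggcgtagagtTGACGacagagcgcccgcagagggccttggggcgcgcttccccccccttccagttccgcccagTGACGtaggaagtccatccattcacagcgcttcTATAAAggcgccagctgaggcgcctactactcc
Dusp1, chr17:26508473-26508672, minus strand: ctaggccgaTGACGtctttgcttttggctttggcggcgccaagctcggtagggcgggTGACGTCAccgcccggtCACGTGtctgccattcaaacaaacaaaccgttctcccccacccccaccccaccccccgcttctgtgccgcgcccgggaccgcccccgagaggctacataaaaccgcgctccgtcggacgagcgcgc
Zfp36, chr7:28379229-28379428, minus strand: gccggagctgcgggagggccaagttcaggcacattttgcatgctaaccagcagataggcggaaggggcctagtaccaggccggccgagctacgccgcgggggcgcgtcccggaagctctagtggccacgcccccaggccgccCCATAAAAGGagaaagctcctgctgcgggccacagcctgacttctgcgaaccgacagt

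Motifs were searched on both strands. Dusp1 held the full cyclic AMP response element TGACGTCA at -143 to -136 from the start, and 1.79% of all 32851 windows of the same length held one. Zfp36 held a CArG box, the core of the serum response element, at -58 to -49, against 1.63% of all windows. Each of these 2 elements was in 1 of the 7 windows. Sequence more than 250 bases before the start was not searched, so a gene without a match may hold one further upstream. Fos held TATAAA at -33 to -28, against 13.6% of all windows, and the partial element TGACG, which the full element contains on both strands, at -66 to -62 and -129 to -125. TGACG was in the windows of 3 of the 7 genes and in 20.8% of all windows. Dusp1 also held the E-box CACGTG at -126 to -121, against 7.15% of windows. The AP-1 site TGANTCA, in 7.81% of all windows, and the EGR site GCGTGGGCG, in 0.612%, were in none of the 7.

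Downstream of the stop codon, 6 of the 10 genes held the AU-rich motif TATTTAT, the sequence that ZFP36 binds, in the longest end annotated in GENCODE vM21. Of 12520 tested genes with such an annotated end, 29.3% held at least 1 match on the sense strand, over a median length of 1113 bases. Ier3 held 4 matches in 613 bases, Dusp1 3 in 690, Zfp36 3 in 774 and Fos 2 in 815, while 3.75% of the tested genes held at least 3. Jun and Jund held 1 each, and Junb, Egr1, Ier2 and Myc held 0. The sites of Ier3 and Zfp36 are shown because these 30-base stretches hold 2 matches each, in capitals.
Ier3, chr17:35822477-35822506, plus strand: tccgtgtctaattaaTATTTATgTATTTAT
Zfp36, chr7:28376962-28376991, minus strand: gggcccttTATTTATgacgacttTATTTAT

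None of the 10 immediate early genes differed between PX-478 and saline livers beyond the spread between animals. In edgeR's fit 5 of the 10 were higher and 5 lower in PX-478 livers, against 49.7% higher and 50.3% lower of all genes tested. The median log2 ratio of PX-478 over saline was 0.01 for the 10 genes and -0.00 for all genes. The count of genes on the higher side was 8 when libraries were scaled by total reads alone, a scaling that moved the median of all genes by 0.15 on the log2 scale, and 3 without saline replicate 2 or without saline replicate 4. At an adjusted p of 0.05 edgeR called 0 of the 10, where it called 0.0073% of all genes tested (0% higher, 0.0073% lower), and adjusted p-values of the 10 ran between 0.736 and 0.996. At an unadjusted p under 0.05 the count was also 0 of 10, against 6.97% of all genes (3.48% higher and 3.48% lower), and DESeq2 and limma-voom called 0 of the 10 at either threshold. In all 10 genes the groups overlapped, while the groups did not overlap in 8.59% of all genes tested (4.3% higher and 4.29% lower). The labels number the samples without saying how the animals were housed or handled, so every p here measures the spread between these 7 samples, which may be technical. Jun, Junb, Jund, Dusp1 and Zfp36 each overlap another annotated gene, and whether the counting used strand is not stated. Reads of the neighbours may therefore be included, or shared reads left out.

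**Figure D1:**
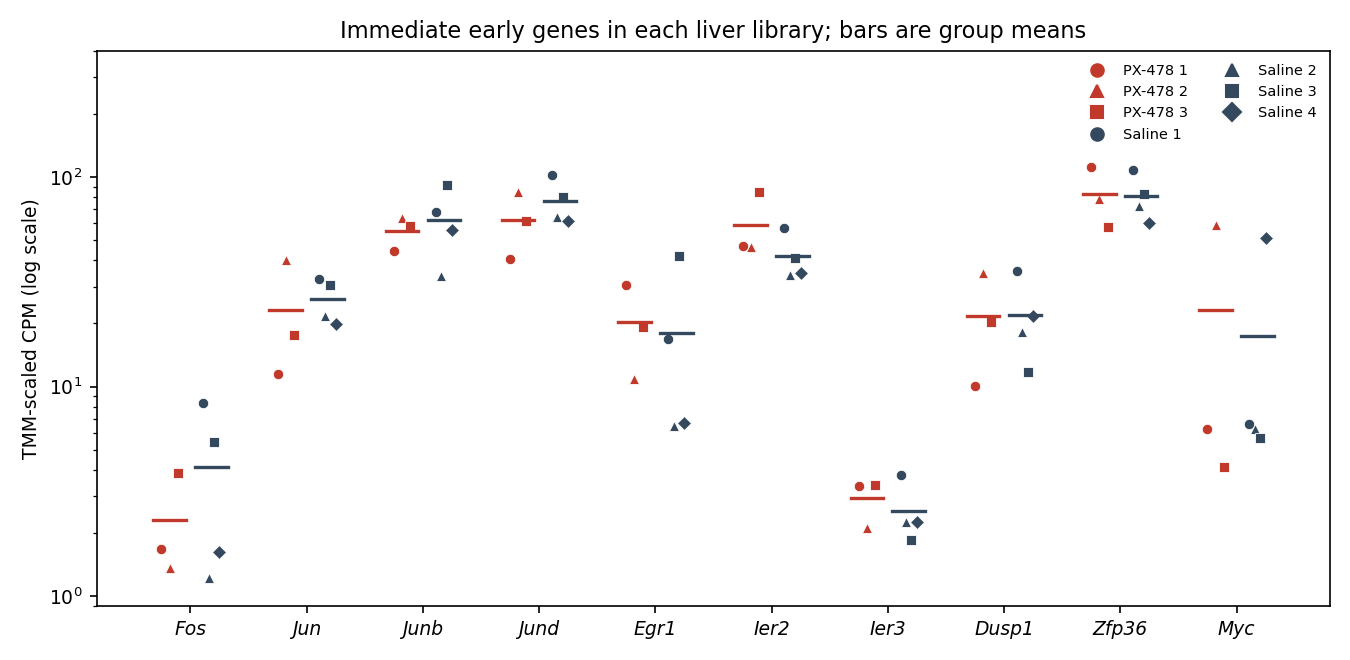
Level of each gene in each library, in TMM-scaled CPM on a log axis, with PX-478 in red on the left and saline in dark blue on the right of each gene, and a bar at the arithmetic mean of each group. The groups overlap for every one of the 10 genes, and Myc splits each group, with PX-478 2 at 58.8 CPM and saline 4 at 51.2 CPM.

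What the intervals leave possible differed widely from gene to gene. The narrowest belonged to Zfp36 and Ier2, and the widest to Myc, whose 95% interval ran from 0.136-fold to 12.7-fold. For Zfp36 the interval ran from 0.699-fold to 1.49-fold, and for Jund from 0.549-fold to 1.19-fold. The intervals of Egr1, from 0.341-fold to 3.67-fold, and of Fos, from 0.206-fold to 1.49-fold, were wide as well.

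**Figure D2:**
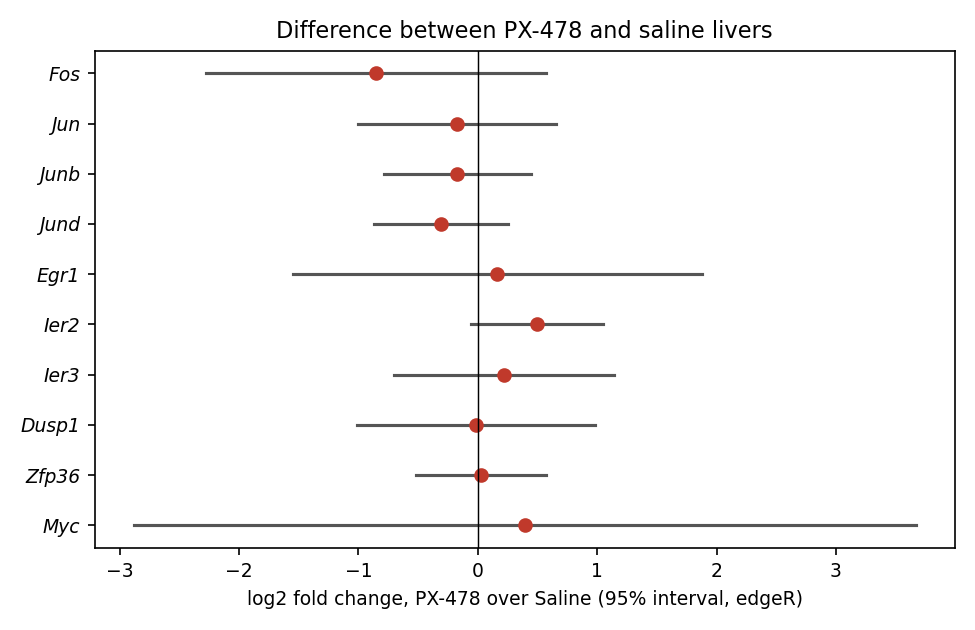
Fitted log2 ratio (PX-478 over saline, axis labelled log2 fold change) of each gene (red points) with its 95% interval from edgeR (grey lines), 3 against 4 libraries. Every interval crosses 0, and that of Myc is the widest, from -2.88 to 3.67.

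Among the AP-1 subunits, Fos (Entrez Gene 14281, chromosome 12, 85473890 to 85477274 in GRCm38.p6, which shares its coordinates with mm10) encodes the subunit whose transcript is nearly absent in resting cells. Its level was 1.67, 1.36 and 3.85 CPM in PX-478 livers 1 to 3, against 8.34, 1.21, 5.42 and 1.63 CPM in saline livers 1 to 4. Saline 1 and 3 were the highest of all libraries, while saline 2 was the lowest of all and saline 4 lay among the PX-478 livers. Fos averaged 2.29 ± 1.36 CPM in PX-478 and 4.15 ± 3.37 CPM in saline (SD, n = 3 and 4), a log2 ratio of -0.85 (SE 0.65, edgeR adjusted p = 0.832). The reads behind these levels were few, 18 to 59 in PX-478 and 14 to 128 in saline libraries. Without saline replicate 1 the log2 ratio was -0.27, and without PX-478 replicate 3 it was -1.45.

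Jun (Entrez Gene 16476, chromosome 4, 95049036 to 95052222) encodes the partner that can also pair with itself. Its level was 11.4, 40.2 and 17.6 CPM in PX-478 livers, against 32.4, 21.6, 30.4 and 19.9 CPM in saline livers. Both the highest and the lowest library were PX-478 livers, with 1 above and 2 below the whole saline range. The highest library exceeded the lowest 3.52-fold in PX-478 and 1.63-fold in saline, a difference in spread that was not tested. The log2 ratio was -0.18 (SE 0.38). It was -0.85 without PX-478 replicate 2 and 0.15 without PX-478 replicate 1, so its direction rests on single livers.

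Junb and Jund (Entrez Gene 16477 and 16478) both lie on chromosome 8, from 84976909 to 84978748 and from 70697739 to 70700616. JUNB is induced early and can restrain JUN, and Jund is the subunit that cells express without a stimulus. Junb was at 44.3, 63.5 and 58.0 CPM in PX-478 livers, against 68.1, 33.8, 91.3 and 55.7 CPM in saline livers, and its saline values enclosed all 3 PX-478 values. Jund was at 40.5, 84.6 and 61.7 CPM in PX-478 livers, against 102, 64.1, 80.2 and 61.8 CPM in saline livers, so that PX-478 1 and 3 lay below every saline liver. Neither difference passed, at a log2 ratio of -0.17 (SE 0.28) for Junb and -0.31 (SE 0.26) for Jund. Junb turned to 0.07 without saline replicate 3, the liver in which it was highest, and was -0.38 without saline replicate 2. Jund was -0.07 without PX-478 replicate 1 and -0.59 without PX-478 replicate 2, and it was below 0 in all 20 alternatives. Across the 7 libraries Jun and Jund were the pair most alike of the 45 pairs among these genes, with a root mean square distance of 0.24 between their log2 CPM after each was centred on its own mean.

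Egr1 (Entrez Gene 13653, chromosome 18, 34861207 to 34864956) encodes a zinc finger transcription factor that serum, growth factors and insulin induce. It stood at 30.7, 10.9 and 19.2 CPM in PX-478 livers, against 16.9, 6.505, 42.2 and 6.70 CPM in saline livers. Saline 3 held the highest value and saline 2 and 4 the lowest, with all PX-478 livers in between. The means were 20.2 ± 9.92 CPM in PX-478 and 18.1 ± 16.8 CPM in saline (SD), a log2 ratio of 0.16 (SE 0.72, adjusted p = 0.973). It was -0.27 without PX-478 replicate 1, -0.11 without saline replicate 2 or 4, and 1.01 without saline replicate 3.

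Ier2 (Entrez Gene 15936, chromosome 8, 84661331 to 84662852) encodes a nuclear early response protein. It had the smallest p of the 10 genes. Its level was 46.7, 46.1 and 84.4 CPM in PX-478 livers, against 56.9, 34.2, 41.1 and 35.0 CPM in saline livers. PX-478 3 was the highest library, and saline 1 lay above the other PX-478 livers. Ier2 averaged 59.1 ± 21.9 CPM in PX-478 and 41.8 ± 10.6 CPM in saline (SD), a log2 ratio of 0.50 (SE 0.26, 95% interval -0.05 to 1.05, unadjusted p = 0.0728 and adjusted p = 0.736 by edgeR over 3 and 4 libraries). In the authors' deposited table its log2 ratio was 0.50 with an unadjusted p of 0.0161, the only one of the 10 under 0.05 there. How the authors entered the 2 count columns of each sample into that test is not stated in the labels. Without PX-478 replicate 3 the value was 0.15, and without saline replicate 1 it was 0.68.

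Ier3 (Entrez Gene 15937, chromosome 17, 35821713 to 35822911) encodes a protein of the stress response that acts on cell survival. It was low, at 3.34, 2.12 and 3.39 CPM in PX-478 livers, against 3.78, 2.26, 1.85 and 2.26 CPM in saline livers. All PX-478 values lay within the saline range. The log2 ratio was 0.22 (SE 0.43), on 28 to 52 reads in PX-478 and 26 to 58 reads in saline libraries. It was 0.09 without saline replicate 3 and 0.48 without saline replicate 1.

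Both genes that end the response were without a call. Dusp1 (Entrez Gene 19252, chromosome 17, 26505591 to 26508472) encodes the phosphatase that removes the activating phosphates from JNK, p38 and ERK, and glucocorticoids induce it as well. It stood at 10.03, 34.6 and 20.4 CPM in PX-478 livers, against 35.7, 18.2, 11.8 and 21.7 CPM in saline livers. The extremes of the groups nearly coincided, with the highest library 3.45-fold above the lowest in PX-478 and 3.03-fold in saline. The log2 ratio was -0.01 (SE 0.44), and it was above 0 without PX-478 replicate 1, PX-478 replicate 3 or saline replicate 1, at 0.34, 0.03 and 0.33. It was -0.52 without PX-478 replicate 2.

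Zfp36 (Entrez Gene 22695, chromosome 7, 28376784 to 28379228) encodes tristetraprolin, which binds AU-rich elements such as those printed above and brings about decay of the message. It was at 112, 78.2 and 57.9 CPM in PX-478 livers, against 108, 73.0, 82.8 and 60.4 CPM in saline livers, the narrowest range of the 10 genes at 1.93-fold between highest and lowest library. The log2 ratio was 0.03 (SE 0.25), and it was below 0 without PX-478 replicate 1, saline replicate 2 or saline replicate 4, at -0.25, -0.02 and -0.09.

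Myc (Entrez Gene 17869, chromosome 15, 61985341 to 61990361), which encodes the transcription factor of growth and ribosome production, showed the widest differences between livers, and these ran across the treatment. Its level was 6.27, 58.8 and 4.11 CPM in PX-478 livers, against 6.64, 6.24, 5.68 and 51.2 CPM in saline livers. PX-478 2 and saline 4 were the high livers, and the other 5 lay between 4.11 and 6.64 CPM. The 2 deposited count columns held 776 and 779 reads for PX-478 2 and 819 and 817 reads for saline 4. The columns of a sample differed by less than the sampling noise over all genes, so they are not independent measurements of these livers. The means were 23.1 ± 31.0 CPM in PX-478 and 17.5 ± 22.5 CPM in saline (SD), a log2 ratio of 0.39 (SE 1.32). Without PX-478 replicate 2 it was -1.76, and without saline replicate 4 it was 1.89. PX-478 2 was also the library with the fewest counted reads, 10285776, and the lowest share of mitochondrially encoded reads, 22.4% against 27.1% to 36.7% in the others. Saline 4, with 16529871 reads and 29.02%, stood apart in neither.

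Of the tested genes whose log2 CPM averaged 1 or more, Cish came nearest to Myc across the 7 libraries, at a root mean square distance of 0.47 on the log2 scale. Cish encodes a SOCS-family inhibitor of cytokine signalling that STAT5 induces downstream of growth hormone. It stood at 9.34, 106 and 8.09 CPM in PX-478 livers, against 14.002, 15.1, 25.6 and 89.7 CPM in saline livers, and its high livers were those of Myc. Phlda1, an early response gene with a pleckstrin homology-like domain, lay at a distance of 0.71, with 101.3, 575 and 174 CPM in PX-478 livers, against 243, 87.3, 122 and 702 CPM in saline livers. Cish and Phlda1 were looked up after the Myc values had been seen, and with 7 libraries a likeness that rests on 2 high livers is a description only. Among the 10 genes themselves, the distance of 2.16 between Myc and Egr1 was the largest of the 45 pairs.

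**Figure D3:**
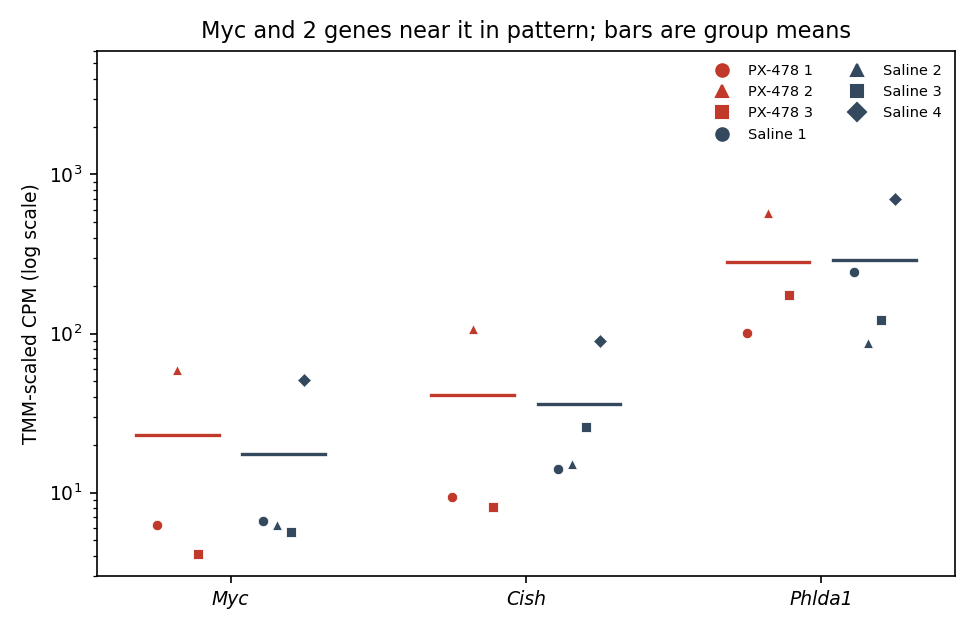
Levels of Myc, Cish and Phlda1 in each library, in TMM-scaled CPM on a log axis, with PX-478 in red on the left of each gene and saline in dark blue on the right, and bars at arithmetic group means. PX-478 2 and saline 4 are the highest libraries for all 3 genes.

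The spread between livers of the same group was wide for most of these genes compared with other genes of similar level. The spread was taken as the within-group SD of log2 CPM, over 3 PX-478 and 4 saline libraries. It ran from 0.399 for Ier3 to 1.74 for Myc, and all 10 lay above the median of the genes tested, 0.385. Set against the 500 tested genes nearest in mean level, the SD of Myc and Egr1 exceeded 99.6% of them each, that of Dusp1 98.4%, and those of Fos and Jun 95.6% each. Junb exceeded 89.8%, Jund and Ier2 84.2% each and Zfp36 83.8%, while Ier3, at 19.2%, was less variable than most genes of its level. In 9 of the 10 genes the SD thus exceeded that of 80% of its neighbours in level.

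**Figure D4:**
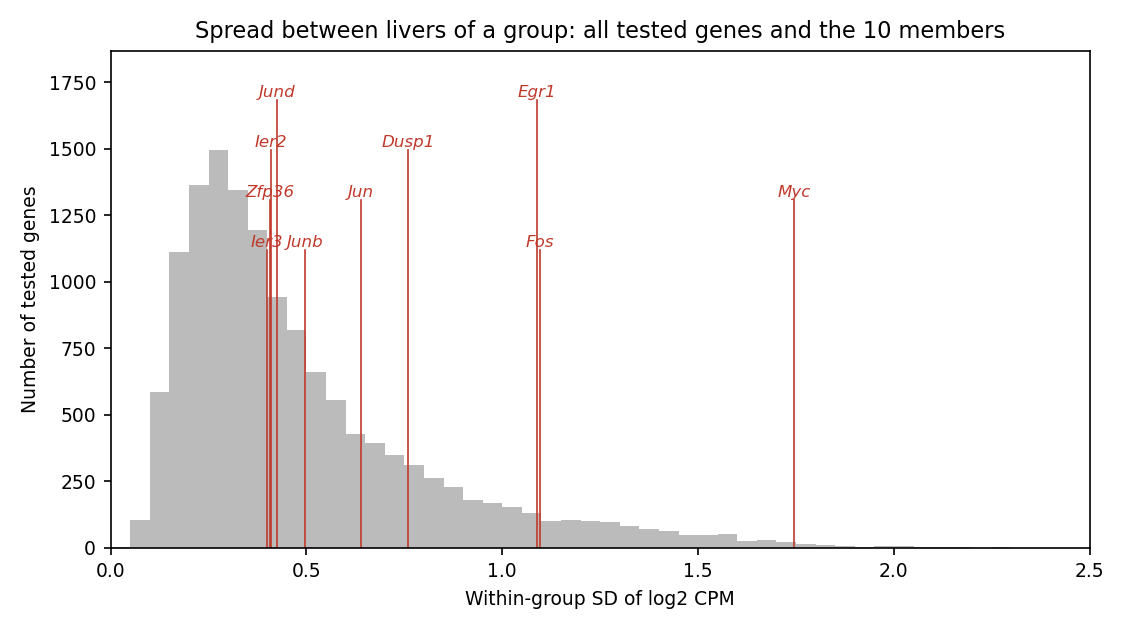
Distribution of the within-group SD of log2 CPM over the tested genes (grey bars, 3 genes beyond 2.5 not drawn), with the 10 immediate early genes as red lines whose heights carry no value. Myc stands at 1.74, Fos and Egr1 near 1.1, and Ier3 at 0.399.

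The genes did not move together from liver to liver as 1 block. Saline 2 was below the mean of every one of the 10 genes and was the lowest library for 4 of them. Saline 1 was above the mean for 9, all but Myc, and the highest library for 4. PX-478 1 had the lowest Jun, Jund and Dusp1 and at once the highest Zfp36, and it was the second highest for Egr1. Saline 3 had the highest Egr1 and Junb and the lowest Ier3. The 5 tested genes nearest to the mean profile of the 10 were Trappc6a, Lims1, Sptssa, Aamp and Arg1, at root mean square distances of 0.0984 to 0.109. That profile averages unlike genes and runs only from -0.49 to 0.44, so genes that vary little lie close to it. Distances among the 10 themselves ran from 0.24 to 2.16, and the small distances do not mean that the 5 follow the early genes. Arg1 encodes arginase 1 of the urea cycle.

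**Figure D5:**
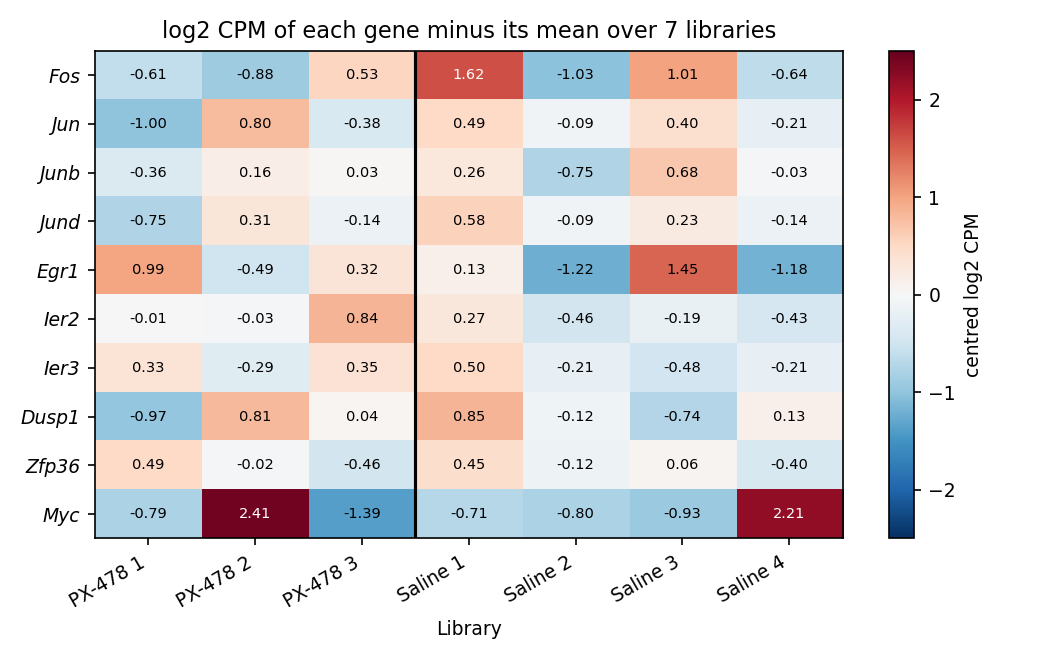
Log2 CPM of each gene (rows) in each library (columns, PX-478 left of the line and saline right of it) minus the mean of that gene over the 7 libraries, in red where above and blue where below. Saline 2 is below the mean in all 10 rows, and Myc is 2.41 above its mean in PX-478 2 and 2.21 above it in saline 4.

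Levels were also set side by side per kilobase of merged exon, over all transcripts of a gene in the annotation. For Zfp36 and Egr1 that length, 3.47 and 4.484 kb, is longer than the whole RefSeq gene. Their values may therefore be too low, and their place among the genes on this scale is uncertain. On that scale Ier2 and Jund averaged 38.8 and 37.4 CPM per kb in PX-478 livers, and 27.5 and 46.2 CPM per kb in saline livers. Junb and Zfp36 followed, at 30.6 and 23.8 CPM per kb in PX-478 and 34.4 and 23.4 CPM per kb in saline. These top 4 overlapped one another across libraries. Myc, Dusp1 and Jun averaged 9.43, 9.14 and 7.24 CPM per kb in PX-478, against 7.13, 9.20 and 8.18 CPM per kb in saline, and overlapped one another too. The lowest Zfp36 library, at 16.7 CPM per kb, was above the highest Dusp1 library, at 15.04 CPM per kb, while Myc reached 24.0 CPM per kb in PX-478 2. Egr1 averaged 4.51 CPM per kb in PX-478 and 4.03 in saline, and Ier3 2.61 in PX-478 and 2.24 in saline. Fos was the lowest, at 1.09 CPM per kb in PX-478 and 1.97 in saline. Egr1, Ier3 and Fos overlapped across libraries, so no order among them held beyond the spread.

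Other subunits that pair with FOS and JUN were also without a call. Of 11 tested, 4 were higher and 7 lower in PX-478 (median log2 ratio -0.15), and 0 passed the adjusted threshold. An unadjusted p under 0.05, which 6.97% of all genes tested had, was reached by 1. That was Batf, an AP-1 factor of lymphocytes, at 0.252 ± 0.0905 CPM in PX-478 and 1.47 ± 1.34 CPM in saline (SD; log2 ratio -2.504, SE 1.02), on 1 to 50 reads. Fosb, an early partner of JUN, averaged 0.526 CPM in PX-478 and 1.40 CPM in saline. The small MAF gene Maff averaged 8.50 CPM in PX-478 and 5.05 CPM in saline. Jdp2, a JUN dimerization partner, averaged 2.36 CPM in PX-478 and 1.196 CPM in saline. The groups overlapped in all 4 genes named here.

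Among 32 other early response genes tested, 17 were higher and 15 lower (median 0.04), and 0 passed the adjusted threshold. The count on the higher side was 25 when libraries were scaled by total reads alone and 13 without PX-478 replicate 2. Plk2, a stress-induced polo-like kinase, was at 25.4, 36.6 and 25.0 CPM in PX-478 livers, against 21.4, 17.7, 19.0 and 20.8 CPM in saline livers, with no overlap (log2 ratio 0.56, SE 0.20, adjusted p = 0.602). Klf4, a Krüppel-like factor, averaged 0.823 CPM in PX-478 and 2.24 CPM in saline, on 6 to 51 reads, also with no overlap. Its log2 ratio was -1.44 (SE 0.61, adjusted p = 0.683 in edgeR). Plk2 and Klf4 were the only 2 of the 32 with an unadjusted p under 0.05, against 6.97% of all genes tested. They were also the only 2 whose groups did not overlap, against 8.59% of all genes. Klf10, induced by TGF-β, had a log2 ratio of 0.56 (SE 0.27), and Egr2, a relative of Egr1, one of -1.82 (SE 0.99) on 0 to 33 reads.

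The kinases and receptors that carry the signal to these genes held the smallest p-values of the 9 pathway lists. Those lists ran from 2 to 32 tested genes, and this ranking takes no account of their size. Of 24 tested, 9 were higher and 15 lower (median -0.09), or 15 higher when libraries were scaled by total reads alone, and 0 passed the adjusted threshold in edgeR. An unadjusted p under 0.05 was reached by 3, Map2k6, Mapkapk2 and Egfr, against 6.97% of all genes tested. The groups did not overlap in 3, Map2k6, Mapkapk2 and Map2k7, against 8.59% of all genes. Map2k6, which encodes a kinase that activates p38, was at 19.9, 6.28 and 15.1 CPM in PX-478 livers, against 4.82, 2.95, 0.529 and 4.13 CPM in saline livers. Every PX-478 liver was above every saline liver, and the log2 ratio was 2.14 (SE 0.59, adjusted p = 0.508 in edgeR and 0.0235 in DESeq2). Mapkapk2 encodes MK2, the kinase downstream of p38 that phosphorylates tristetraprolin. It was at 35.8, 46.9 and 44.2 CPM in PX-478 livers, against 72.7, 51.1, 76.0 and 65.3 CPM in saline livers, with no overlap (log2 ratio -0.65, SE 0.20, adjusted p = 0.515). Egfr, the receptor of epidermal growth factor, averaged 146 ± 57.0 CPM in PX-478 and 234 ± 56.5 CPM in saline (log2 ratio -0.68, SE 0.29), and Map2k4, which activates JNK, had one of -0.42 (SE 0.20).

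Of the transcription factors that drive the early genes, 7 of 11 tested were higher and 4 lower, and 0 passed the adjusted threshold. Srf, serum response factor itself, averaged 10.3 CPM in PX-478 and 9.50 CPM in saline. Mef2c, which binds promoters of several early genes, was at 2.16, 5.37 and 2.35 CPM in PX-478 livers, against 1.95, 0.434, 0.925 and 0.376 CPM in saline livers (log2 ratio 1.81, SE 0.64, adjusted p = 0.602 in edgeR), without overlap. Of the 11 it was the only 1 without overlap, against 8.59% of all genes tested. It was also the only 1 with an unadjusted p under 0.05, against 6.97% of all genes. The coactivator genes Mrtfb and Crtc2 had log2 ratios of 0.26 (SE 0.28) and 0.18 (SE 0.21), and Mef2d one of -0.25 (SE 0.35).

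Among 14 feedback inhibitors other than Dusp1, 6 were higher and 8 lower, and 0 passed at either threshold. Spred1 and Spred2, which hold back RAF, had log2 ratios of 1.098 (SE 0.53) and 1.11 (SE 0.65). Only in Spred1, 1 of the 14, did the groups not overlap, against 8.59% of all genes tested. The phosphatase genes Dusp2 and Dusp8 had -1.11 (SE 0.74) and -1.40 (SE 1.15). The relatives of Zfp36, which bind the same kind of element, were near 0, Zfp36l1 at 0.03 (SE 0.22) and Zfp36l2 at -0.01 (SE 0.33).

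Partners and targets of MYC were counted as well. Of the 12 tested network partners, 12 had higher means in PX-478, with a median of 0.17, 0 unadjusted p-values under 0.05 and no gene without overlap. Without PX-478 replicate 1 the count was 8 higher. The MYC antagonists Mxd1 and Mnt had log2 ratios of 0.41 (SE 0.29) and 0.33 (SE 0.24), Mycn one of 0.79 (SE 0.66) and Zbtb17, which encodes MIZ-1, one of 0.22 (SE 0.21). Of 24 target genes, 2 were higher and 22 lower (median -0.17), again with 0 unadjusted p-values under 0.05. That split depended on the scaling and on 1 liver, since 11 were higher when libraries were scaled by total reads alone and 12 were higher without saline replicate 3. Ldha, lactate dehydrogenase A, had a log2 ratio of -0.48 (SE 0.26), Pa2g4 one of -0.35 (SE 0.23), Ccnd2, cyclin D2, one of 0.50 (SE 0.37) and the nucleolar gene Nolc1 one of -0.44 (SE 0.35).

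Cytosolic stress genes had lower means in PX-478 in all 8 cases (median -0.49), with 0 unadjusted p-values under 0.05. Dnajb1, a heat shock cochaperone gene, was at 14.4, 27.5 and 17.7 CPM in PX-478 livers, against 17.7, 14.7, 131 and 18.04 CPM in saline livers. Hspa1b, an inducible HSP70, was at 4.46, 22.0 and 8.42 CPM in PX-478 livers, against 15.6, 7.03, 86.6 and 11.9 CPM in saline livers. Saline 3, the high liver for both, was also the one with the highest Egr1 and Junb, and without it 5 of the 8 stress genes were higher in PX-478. Hspa1a had a log2 ratio of -0.83 (SE 0.79) and Hspa8, the constitutive HSP70, one of -0.45 (SE 0.32).

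Albumin, the main secreted protein of hepatocytes, averaged 18836 CPM in PX-478 and 23549 CPM in saline, and the 7 hepatocyte markers summed to 33482 to 39866 CPM in PX-478 and 37124 to 52987 CPM in saline. Of the 9 macrophage markers, 9 were lower in PX-478 (median -0.45), against 50.3% of all genes tested, and 0 passed the adjusted threshold. An unadjusted p under 0.05 was reached by 3, against 6.97% of all genes. The same 3 had no overlap between groups, against 8.59% of all genes. Those were Lyz2, lysozyme, with a log2 ratio of -1.12 (SE 0.22), Cd68, a lysosomal protein, with -0.91 (SE 0.20), and Vsig4, a complement receptor, with -0.94 (SE 0.27). Csf1r, Clec4f and Marco lay nearer 0, at -0.01 (SE 0.21), -0.18 (SE 0.30) and -0.19 (SE 1.02). The 9 markers summed to 272 to 389 CPM in PX-478 and 282 to 590 CPM in saline, highest in saline 4, and Clec4f and Cd5l made up most of that sum. Summed stellate cell markers ran from 107 to 212 CPM in PX-478, highest in PX-478 2, and from 120 to 146 CPM in saline. Summed endothelial markers ran from 143 to 170 CPM in PX-478 and from 99.7 to 149 CPM in saline, and cholangiocyte markers from 78.6 to 132 CPM in PX-478 and from 74.9 to 110 CPM in saline. T cell markers summed to at most 5.35 CPM in PX-478 and 7.14 CPM in saline, B cell markers to at most 18.7 CPM in PX-478 and 17.1 CPM in saline, and neutrophil markers to at most 7.11 CPM in PX-478 and 6.48 CPM in saline. Red blood cell markers ran from 112 to 147 CPM in PX-478 and from 101.5 to 185 CPM in saline. The 2 adipocyte markers in the table summed to 7.24 to 13.2 CPM in PX-478 and 30.6 to 50.3 CPM in saline, a gap made by Cfd, the 1 gene past the adjusted threshold. Single markers of skeletal muscle and pancreas were at most 1.46 and 8.94 CPM in PX-478 and 1.76 and 17.1 CPM in saline. In whole liver, fewer cells of a type and less RNA per cell cannot be told apart, and the part of other cell types in the levels of the early genes was not tested.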

How the data were processed

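Liver RNA from 7 ApoE-/- mice (3 PX-478, 4 saline) was sequenced, with groups and replicate numbers taken from the sample titles. The authors deposited raw read counts per gene; the submitters' processing notes name featureCounts, edgeR and the mm10 build, and neither the labels nor the notes name an aligner. All 14889 genes exceeded 0.5 CPM in 2 or more of the 14 count columns. Each sample has 2 count columns that differed by less than the sampling noise (mean chi-square per gene 0.291 to 0.765, against 49.2 to 146 between samples of a group) and were counted as 1 sample, as their rounded mean. The authors' deposited table also gives the log2 fold change and unadjusted p-value of their own test. Its 7 columns of averages, 1 for each sample, were left aside.

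Libraries held 10285776 to 17257304 reads in PX-478 and 10962670 to 16910277 reads in saline. Genes were filtered with filterByExpr (13693 kept), scaled by TMM and tested with edgeR 4.0.16 (R 4.3.3, quasi-likelihood, robust, no covariates), with Benjamini-Hochberg adjustment across all tested genes and a threshold of 0.05. SE is the size of the log2 ratio divided by the root of F. Log2 CPM used a prior count of 2. In 1 library 3 reads are 0.188 to 0.260 CPM, which covers counting error only. Alternatives were limma 3.58.1 (voom), DESeq2 1.42.0, other scalings and filters, single columns, a replicate block and leaving out each library, 20 in all.

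Gene positions came from RefSeq GRCm38.p6 by Entrez ID, where 14492 of 14889 IDs matched, and exon lengths from GENCODE vM21. Use of strand in counting is not stated, and GENCODE places another gene over part of Jun, Junb, Jund, Dusp1 and Zfp36. Whether their counts include reads of the overlapping gene, or lack reads shared with it, cannot be told.

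The members, lists and tests were chosen with earlier results of these data known. Named genes were the 10 members, from each of 9 lists the 4 genes with the smallest p and any other with an unadjusted p under 0.05, and the 5 genes nearest to the mean profile of the members. Srf, Cish, Phlda1, Nab2 and the markers named one by one were added after their values were seen. Promoters of Egr1, Ier2 and Myc were not used here.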

Additional observations from a re-analysis of the deposited data

Results flagged for a closer look

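Myc in the saline group was set apart by 1 liver. Saline 4, at 51.2 CPM, lay so far above the other 3 saline livers, at 5.68 to 6.64 CPM, that its gap to the nearest of them took up 0.979 of the whole range of the group, above Dixon's 95% critical value of 0.829 for 4 samples. None of the other 9 genes exceeded that value, and chance flags about 1 in 20 groups. The 3 PX-478 livers were not tested this way. PX-478 2 was at 58.8 CPM there, and the other 2 were at 6.27 and 4.11 CPM.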

How the results depend on the processing

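None of the 10 genes passed the adjusted threshold under any of the 20 alternatives, and Fos, Ier2, Ier3 and Jund kept their direction in all of them. Adjusted p-values of the 10 genes ranged from 0.464 to 1.00 over the alternatives. Of all genes, edgeR called 0 higher and 1 lower. DESeq2 called 46 higher and 37 lower, 1 of them in the signalling list (Map2k6), limma-voom called 0 lower, and scaling by total reads alone called 4 higher. Leaving out single libraries gave 0 to 4 higher and 1 to 3 lower genes, and 3 to 6 of the 10 early genes on the higher side. Scaling by total reads alone put 8 of the 10 on the higher side and turned Jun to 0.076, Junb to 0.019 and Dusp1 to 0.20 (log2 ratios), and DESeq2 gave Dusp1 0.0011. Leaving out single libraries moved Jun between -0.85 and 0.15, Junb between -0.38 and 0.072, Egr1 between -0.27 and 1.01, Dusp1 between -0.52 and 0.34, Zfp36 between -0.25 and 0.23 and Myc between -1.76 and 1.89. The cause of these changes was not tested. An unadjusted p under 0.05 was reached by Ier2 with total reads alone and without PX-478 replicate 1, PX-478 replicate 2 or saline replicate 1, and by Jun and Jund without PX-478 replicate 2. Same-numbered samples of the groups did not deviate together (correlations -0.02, -0.07 and -0.00), and the largest value, 0.17, was between PX-478 1 and saline 2. With so few libraries this check cannot decide whether the numbers mark pairs, and the main fit used none. With the replicate number as a block, 1 gene was higher and 2 lower, Dusp1 was at 0.014 and Zfp36 at -0.12. Depth limits Fos and Ier3 most, at 14 to 128 and 26 to 58 reads per library.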

Other observations

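Nab2, which encodes a corepressor that binds EGR1, was among the 5 tested genes nearest to Fos across the 7 libraries, at a root mean square distance of 0.46 on the log2 scale. It stood at 29.6, 30.1 and 62.3 CPM in PX-478 livers, against 70.2, 29.8, 68.3 and 35.1 CPM in saline livers. Nab2 was looked up after the Fos values had been seen, and over 7 libraries the likeness is a description only.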
